A study of Mus musculus with 4 samples.

Results

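The nuclear receptors CAR (Nr1i3) and PXR (Nr1i2), the cytochrome P450 genes of the Cyp2b and Cyp3a families that they are known to control, and Por were followed in mouse liver. The 10 genes were Nr1i3, Nr1i2, Cyp2b9, Cyp2b10, Cyp2b13, Cyp3a11, Cyp3a13, Cyp3a16, Cyp3a25 and Por, taken by gene name among the gene probes of the scanner files. They are 10 of the 30439 genes or transcripts on the array and are read by 13 of its 39429 probes: 7 genes have 1 probe and 3 have 2. The genes were chosen with their differences on these arrays known, so their values are a description and no test is given.

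Liver RNA was measured on 4 one-color Agilent arrays, 1 for each of 4 conditions, from male C57BL/6J mice given a high-fat diet (HFD) for 24 weeks per the labels. Drp1LiKO mice carry floxed Drp1 alleles (Drp1 flox/flox) and Alb-Cre, a Cre driven by the albumin promoter and so active in hepatocytes, and Cont mice are their Drp1 flox/flox littermates without Cre. Drp1, encoded by Dnm1l, is the GTPase that divides mitochondria. The refed livers of both genotypes were taken after a fast of 17 h and 4 h of refeeding per the labels. For the remaining 2 livers the labels mention neither fasting nor refeeding; they are called fasted here from the study's methods, and every value called fasted rests on that reading. The labels also give these 2 arrays as sharing raw data with earlier submissions. By the study's methods, experiments after an overnight fast were done in the morning and refed samples were taken in the afternoon. Refeeding and time of day therefore cannot be told apart in any difference between refed and fasted livers. With 1 array per condition, the differences between animals are unknown, and the SE given is the measurement error from the scanner's error model. Every condition is HFD, and a condition without HFD was not analysed here.

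CAR and PXR sense drugs, steroids and bile acids. Once active, they bind DNA as partners of RXR and raise transcription of genes that clear such compounds. Cyp2b10 is the classical target of CAR in mouse liver and Cyp3a11 that of PXR, with much overlap between the receptors. The P450 enzymes sit in the endoplasmic reticulum membrane, oxidize lipophilic substrates, and draw their electrons from cytochrome P450 reductase, the product of Por.

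Each signal is given relative to the 75th percentile of its own array, so that a value of 1 is a signal equal to that percentile. Before scaling, this percentile stood at 461 (Cont) and 722 (Drp1LiKO) in the fasted pair and at 357 (Cont) and 526 (Drp1LiKO) in the refed pair. Between 48.7% and 58.2% of gene spots on an array were well above background, and none was saturated. Dnm1l itself had a genotype difference of -0.21 in the fasted and -0.12 in the refed pair on its only probe; where that probe lies relative to the deleted exons is not stated in the sources used here, so it does not check the genotypes. The hepatocyte markers Alb, Apoa1, Ttr, Tat and Cps1 were well above background on all 4 arrays. Brightness of different probes is not comparable, so differences are taken within a probe.

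The receptor genes were lower in Drp1LiKO livers in both feeding states, each by less than 2-fold. Nr1i3, on chromosome 1, had a relative signal of 21.5 in Cont and 11.8 in Drp1LiKO after fasting, and 23.3 and 17.0 after refeeding. Both Drp1LiKO values lay below both Cont values, an order whose share over all genes is not given here. On the log2 scale Drp1LiKO minus Cont came to -0.86 (SE 0.20) in the fasted pair and -0.46 (SE 0.20) in the refed pair. The second Nr1i3 probe gave -0.76 and -0.41. With quantile normalization the first probe gave -0.66 and -0.30, the refed value being under 2 times its SE. Nr1i2, on chromosome 16, had 1.30 in Cont and 1.02 in Drp1LiKO after fasting, and 1.54 and 0.78 after refeeding. Here the larger genotype difference was in the refed pair, at -0.98 (SE 0.21) against -0.36 (SE 0.21) in the fasted pair. The receptors thus had their lowest values in different livers, Nr1i3 in the fasted and Nr1i2 in the refed Drp1LiKO liver. For Nr1i2 the refed Drp1LiKO liver differed from the fasted one by only -0.38 (SE 0.21), under 2 times the SE. The change of the genotype difference from fasting to refeeding was 0.41 (SE 0.29) for Nr1i3, under 2 times its SE, and -0.62 (SE 0.29) for Nr1i2.

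**Figure D1:**
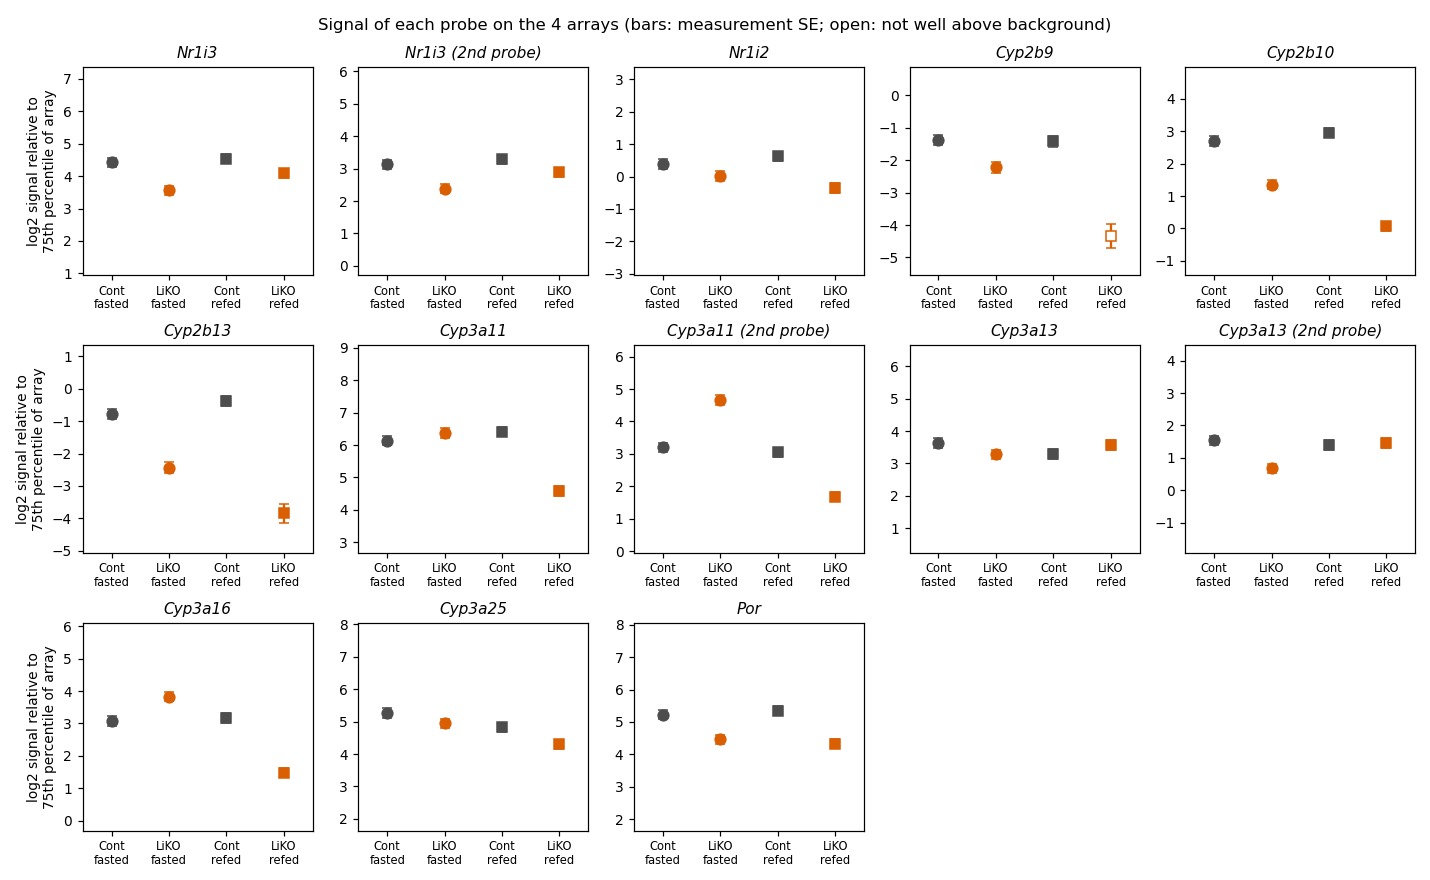
Signal of the 13 probes of the 10 genes on the 4 arrays, as log2 of the signal over the 75th percentile of the array (vertical axis, the same span in each panel), for Cont (grey) and Drp1LiKO (LiKO, orange) livers, fasted (circles) and refed (squares). Bars are the measurement SE, and the open symbol is not well above background. The refed Drp1LiKO liver is the lowest of the 4 for Nr1i2, the Cyp2b genes, Cyp3a11, Cyp3a16, Cyp3a25 and Por.

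The 3 Cyp2b genes lie in the order Cyp2b10, Cyp2b13 and Cyp2b9 on chromosome 7 (Cyp2b10 from 25897658 to 25926624, Cyp2b13 from 26061388 to 26096197 and Cyp2b9 from 26173350 to 26210661, RefSeq, GRCm38.p6). Cyp2b10 is the member that drugs such as phenobarbital induce through CAR. Cyp2b9 and Cyp2b13 are known as genes expressed more in female than in male liver. Their upstream sequences from RefSeq (GRCm38.p6) are shown because the 3 genes moved together, and because those of Cyp2b9 and Cyp2b13 are nearly the same. They run 5′ to 3′ towards the start, stop where the annotated gene begins, and have in capitals the match to TTGCNNAA, a C/EBP type motif searched on both strands:
Cyp2b10, chr7:25897408-25897657, plus strand: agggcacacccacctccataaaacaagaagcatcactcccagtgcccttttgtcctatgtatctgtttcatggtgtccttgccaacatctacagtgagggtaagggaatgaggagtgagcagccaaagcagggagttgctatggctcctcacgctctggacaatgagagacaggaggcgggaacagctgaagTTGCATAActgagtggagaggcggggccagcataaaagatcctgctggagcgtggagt
Cyp2b13, chr7:26061245-26061387, plus strand: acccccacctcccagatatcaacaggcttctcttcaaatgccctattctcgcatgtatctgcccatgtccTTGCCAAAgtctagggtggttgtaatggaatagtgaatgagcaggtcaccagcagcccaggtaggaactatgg
Cyp2b9, chr7:26173159-26173349, plus strand: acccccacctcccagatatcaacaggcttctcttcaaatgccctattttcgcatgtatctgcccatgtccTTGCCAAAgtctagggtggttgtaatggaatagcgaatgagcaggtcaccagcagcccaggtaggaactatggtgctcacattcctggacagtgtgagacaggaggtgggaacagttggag

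Over 250 bases before the transcript starts in the RefSeq table, Cyp2b9 and Cyp2b13 shared 248 bases, with the substitutions T48C and C104T (Cyp2b9 base first, position counted from 1 at the 5′ end of each printed sequence, then the Cyp2b13 base). Cyp2b10 matched each of them at 75.8% of 240 aligned bases. TTGCNNAA was present in 9.56% of the 32851 such windows in the table. The receptor hexamer AGGTCA was in the windows of Cyp2b9, Cyp2b13, Cyp3a11 and Cyp3a25, and in 14% of all windows. The hexamer AGTTCA was in that of Cyp3a11 and in 11.8% of all windows. None of the 10 genes had a pair of the hexamers AGGTCA or AGTTCA spaced as the direct repeats DR3 or DR4 or the everted repeat ER6 within this window, which does not reach the distal enhancers known for these genes.

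All 3 Cyp2b genes had lower signals in Drp1LiKO than in Cont livers in both feeding states. For Cyp2b10 and Cyp2b13 the difference was larger after refeeding. Cyp2b10 had a relative signal of 6.51 in Cont and 2.55 in Drp1LiKO after fasting, a 2.55-fold difference, and 7.76 and 1.05 after refeeding, a 7.42-fold difference. Cyp2b13 had 0.58 and 0.184 after fasting, 3.15-fold apart, and 0.77 and 0.0694 after refeeding, 11.1-fold apart. Cyp2b9 had 0.388 and 0.214 after fasting, 1.81-fold apart, and 0.375 after refeeding in Cont. In the refed Drp1LiKO liver Cyp2b9 was not well above background. On the scanner's own background subtraction its signal there was 7.59-fold lower than in the refed Cont liver (log2 difference -2.92, SE 0.40). This ratio rests on that dim signal and was smaller under normexp (log2 difference -1.49). For all 3 genes both Drp1LiKO values lay below both Cont values. The share of all genes with this order is not given here, so nothing is read from it.

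On the log2 scale, the genotype difference of Cyp2b10 was -1.35 (SE 0.20) in the fasted and -2.89 (SE 0.20) in the refed pair, and that of Cyp2b13 -1.66 (SE 0.22) and -3.47 (SE 0.33). For Cyp2b9 it was -0.86 (SE 0.22) after fasting. Between the refed and the fasted Cont liver the signal differed little, by 0.25 for Cyp2b10, 0.41 for Cyp2b13 and -0.05 for Cyp2b9. In Drp1LiKO the difference between refed and fasted was -1.29 for Cyp2b10 and -1.41 for Cyp2b13. Of the 14448 genes whose signal was well above background on every array, 6 had a lower refed genotype difference than Cyp2b13 and 21 than Cyp2b10. Cyp2b9 and Cyp2b13 were dim, and their refed values depend on the background correction: with normexp, the refed genotype difference was -2.01 for Cyp2b13, against -2.63 for Cyp2b10. The refeeding difference in Drp1LiKO was then -0.79 for Cyp2b9 and -0.48 for Cyp2b13, under 2-fold for both.

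The genes whose pattern over the 4 arrays was nearest to that of Cyp2b10 were the probe A_55_P2071906, for which no gene name is given here, Plekhb1 and Cyp2c38, at root mean square distances of 0.14, 0.14 and 0.16 between log2 signals centered on each gene's mean. Cyp2c38, another P450 gene, had genotype differences of -1.80 after fasting and -2.84 after refeeding. For Cyp2b13 the nearest were Cyp2c38 (0.23), Cyp2b10 (0.23) and Plekhb1 (0.31). For Nr1i3 they were Dlx3 (0.01), Paxx (0.02) and 4930560O18Rik (0.02). With 4 arrays, such closeness among 14448 genes is a description only.

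**Figure D2:**
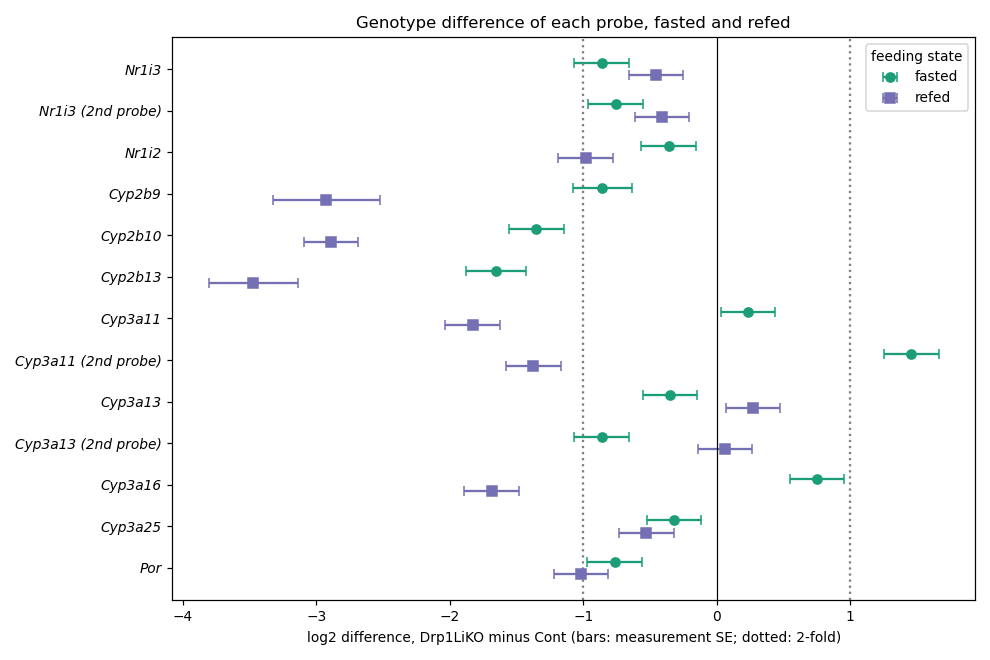
Genotype difference of each of the 13 probes, as log2 of Drp1LiKO minus log2 of Cont (horizontal axis), fasted (circles) and refed (squares). Bars are the measurement SE and dotted lines mark 2-fold. The refed values of Cyp2b10 and Cyp2b13 are -2.89 and -3.47, that of Cyp2b9 rests on a Drp1LiKO signal not well above background, and the Cyp3a11 and Cyp3a16 probes are on opposite sides of 0 in the 2 states.

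The Cyp3a genes did not share a single pattern. Cyp3a11 and Cyp3a16 were more than 3-fold lower in Drp1LiKO than in Cont after refeeding. After fasting neither was past 2-fold, with differences above 0 of 0.23 (SE 0.20) for Cyp3a11, close to its measurement error, and 0.75 (SE 0.20) for Cyp3a16. With quantile normalization these fasted differences were larger, at 0.58 for Cyp3a11 and 0.97 for Cyp3a16. The genotype differences of Cyp3a13 and Cyp3a25 were under 2-fold in both states. Cyp3a11 encodes the main Cyp3a enzyme of adult mouse liver. Cyp3a16 is known mainly from fetal and young liver. The genes Cyp3a16 (145436309 to 145469740), Cyp3a11 (145854607 to 145879854) and Cyp3a25 (145977192 to 146009644) lie in a cluster on chromosome 5, and Cyp3a13 lies apart from it (137892933 to 137925610, RefSeq, GRCm38.p6). The chosen probes of Cyp3a11 and Cyp3a16 are each annotated to 1 gene. These probes were not compared with the transcripts of related Cyp3a genes, so whether they also read those was not tested. Upstream sequences of the clustered genes are shown because Cyp3a11 and Cyp3a16 moved together and Cyp3a25 did not. Capitals mark a match to CAAAGTCCA or CAAAGGTCA, HNF4 type motifs searched on both strands:
Cyp3a11, chr5:145879855-145880104, minus strand: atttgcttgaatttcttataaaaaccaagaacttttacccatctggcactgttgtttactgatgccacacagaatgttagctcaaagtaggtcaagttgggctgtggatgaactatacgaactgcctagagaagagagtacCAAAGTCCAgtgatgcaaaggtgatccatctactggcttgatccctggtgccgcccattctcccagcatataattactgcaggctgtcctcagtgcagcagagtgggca
Cyp3a16, chr5:145469741-145469973, minus strand: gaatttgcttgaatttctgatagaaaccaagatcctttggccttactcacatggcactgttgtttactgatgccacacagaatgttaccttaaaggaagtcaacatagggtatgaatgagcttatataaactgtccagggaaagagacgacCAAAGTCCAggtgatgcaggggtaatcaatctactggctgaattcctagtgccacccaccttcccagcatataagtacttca
Cyp3a25, chr5:146009645-146009868, minus strand: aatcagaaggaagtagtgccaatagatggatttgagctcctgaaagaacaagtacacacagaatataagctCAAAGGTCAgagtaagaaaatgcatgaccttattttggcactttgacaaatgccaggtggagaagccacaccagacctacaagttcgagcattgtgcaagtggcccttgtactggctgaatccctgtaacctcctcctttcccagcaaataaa

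CAAAGTCCA was present in the windows of Cyp3a11 and Cyp3a16 and in 0.384% of all windows, and CAAAGGTCA in that of Cyp3a25 and in 0.426% of all. HNF4 is a nuclear receptor of hepatocytes, and a match of letters is not a measured binding site. In the Cyp3a25 window the hexamer AGGTCA overlaps the HNF4 type match. The windows of Cyp3a11 and Cyp3a16 were identical at 83.3% of 239 aligned bases, and that of Cyp3a25 matched Cyp3a11 at 64.7% of 218. STAT5 type motifs (TTCNNNGAA, 7.02% of all windows) were found in none of the 10 genes.

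Cyp3a11 had a relative signal of 70.5 in Cont and 83.0 in Drp1LiKO after fasting, and 85.0 and 23.9 after refeeding. With this scaling only the refed Drp1LiKO liver stood apart, 3.55-fold below the refed Cont liver and 3.46-fold below the fasted Drp1LiKO liver. The refed genotype difference was -1.83 (SE 0.20). Cyp3a16 had 8.44 and 14.2 after fasting, and 8.99 and 2.79 after refeeding. Its fasted Drp1LiKO value was the highest of the 4 and its refed Drp1LiKO value the lowest, with genotype differences of 0.75 (SE 0.20) and -1.69 (SE 0.20). Refeeding was accompanied by a difference of -2.35 in Drp1LiKO and of 0.09 in Cont.

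A second probe named for Cyp3a11 gave larger values. It is a 60-base probe whose ends lie 1868 bases apart in the genome (mm9), so it crosses an intron, and its accessions in the file belong to 4 genes: Cyp3a11, Cyp3a41a, Cyp3a41b and Cyp3a44. It cannot separate them, and its sequence is shown for that reason:
Probe A_51_P355301: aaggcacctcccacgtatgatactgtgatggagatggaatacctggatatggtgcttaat
Its relative signal was 9.21 in Cont and 25.3 in Drp1LiKO after fasting, and 8.28 and 3.19 after refeeding. Its genotype difference was 1.46 (SE 0.20) fasted and -1.37 (SE 0.20) refed, past 2-fold in opposite directions. On their chosen probes, 6 of the 14448 genes (0.0415%) were at least 2-fold higher in the fasted and at least 2-fold lower in the refed Drp1LiKO liver, and none of the 10 genes was among them.

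Cyp3a25 had 38.5 in Cont and 30.9 in Drp1LiKO after fasting, and 28.3 and 19.7 after refeeding, with genotype differences of -0.32 (SE 0.20) and -0.53 (SE 0.20). Its refed values were below its fasted values in both genotypes, by a log2 difference of -0.44 in Cont and -0.65 in Drp1LiKO, and the latter passed 2-fold with quantile normalization (-1.01) and in the authors' table. Cyp3a13 had 12.4 and 9.72 after fasting, and 9.79 and 11.8 after refeeding. Its differences, -0.35 (SE 0.20) and 0.27 (SE 0.20), ran opposite to those of Cyp3a11 and Cyp3a16. The second Cyp3a13 probe gave -0.86 and 0.06.

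Of 7 further Cyp2b and Cyp3a genes listed, 6 were on the array and 3 were well above background: Cyp3a41b, Cyp3a57 and Cyp3a59. Cyp3a41b, between Cyp3a16 and Cyp3a11 in the cluster, had 1.81 in Cont and 2.75 in Drp1LiKO after fasting, and 1.92 and 0.509 after refeeding, with genotype differences of 0.60 and -1.92. Its probe shares a run of 23 bases with that of Cyp3a44, which had no signal well above background. Cyp3a59, past Cyp3a25 in the cluster, had differences of 0.38 and -0.91, but its second probe had -0.22 and -0.14. Cyp3a57, beside Cyp3a16, had -0.15 and -0.50. Cyp2b19 and Cyp2b23 likewise gave no signal well above background. In the plot by gene order, the probes with opposite signs in the 2 states belong to Cyp3a13, Cyp3a16, Cyp3a41b, Cyp3a11 and Cyp3a59.

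**Figure D3:**
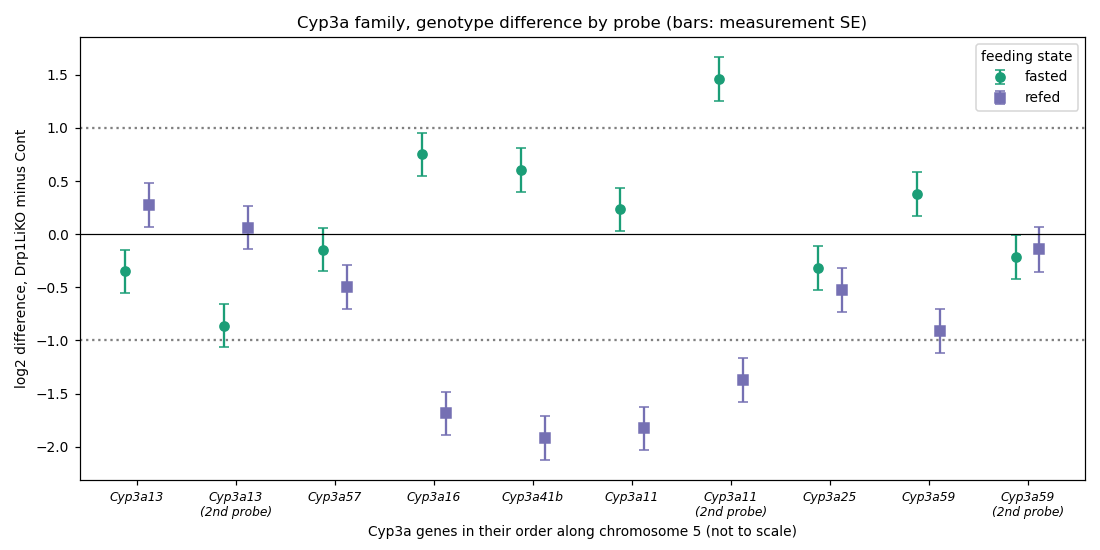
Genotype difference, log2 of Drp1LiKO minus log2 of Cont (vertical axis), of the Cyp3a probes well above background on all 4 arrays, in the order of their genes on chromosome 5 (horizontal axis, not to scale), fasted (circles) and refed (squares). Bars are the measurement SE and dotted lines mark 2-fold. Refed values of the Cyp3a16, Cyp3a41b and Cyp3a11 probes lie between -1.92 and -1.37, below their fasted values, which are above 0.

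Por, whose product feeds electrons to all microsomal P450 enzymes, was lower in Drp1LiKO livers in both states. Its relative signal was 37.5 in Cont and 22.1 in Drp1LiKO after fasting, and 40.8 and 20.2 after refeeding. Its genotype difference was -0.76 (SE 0.20) in the fasted and -1.01 (SE 0.20) in the refed pair. The refed value lies at the 2-fold line and fell short of it with -0.96 when arrays were scaled to their median, -0.94 with normexp and -0.82 with quantile normalization or the authors' table. Refeeding went with small differences in both genotypes, 0.12 in Cont and -0.13 in Drp1LiKO. Among the 9 genes compared, all but Cyp2b9, Por and Nr1i2 were nearest to each other over the 4 arrays, at a distance of 0.15.

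Taking the 10 genes by comparison, 2 were at least 2-fold lower in the fasted Drp1LiKO liver, Cyp2b10 and Cyp2b13, where 5.19% of all genes tested were lower, and none was higher (8.05% of all). After refeeding 6 were at least 2-fold lower, the 3 Cyp2b genes, Cyp3a11, Cyp3a16 and Por, where 6.33% of all genes were lower and 8.05% higher. The median genotype difference of the 10 genes was -0.56 after fasting and -1.35 after refeeding, beside -0.08 and -0.04 over all genes tested. Between the refed and the fasted Cont liver none of the 10 was past 2-fold (4.47% of all genes were higher and 5.83% lower). In Drp1LiKO 5 were lower after refeeding, the 3 Cyp2b genes, Cyp3a11 and Cyp3a16, where 7.15% of all genes were lower and 5.61% higher. These comparisons share arrays with each other, and the same comparisons chose the genes, so nothing is read from the counts. The change of the genotype difference was -1.54 (SE 0.29) for Cyp2b10, -1.82 (SE 0.40) for Cyp2b13, -2.06 (SE 0.29) for Cyp3a11 and -2.44 (SE 0.29) for Cyp3a16. Of the 14448 genes, 2.38% had a change of at least 2-fold in this direction, and 28 had a lower value than Cyp3a16 and 52 than Cyp3a11.

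**Figure D4:**
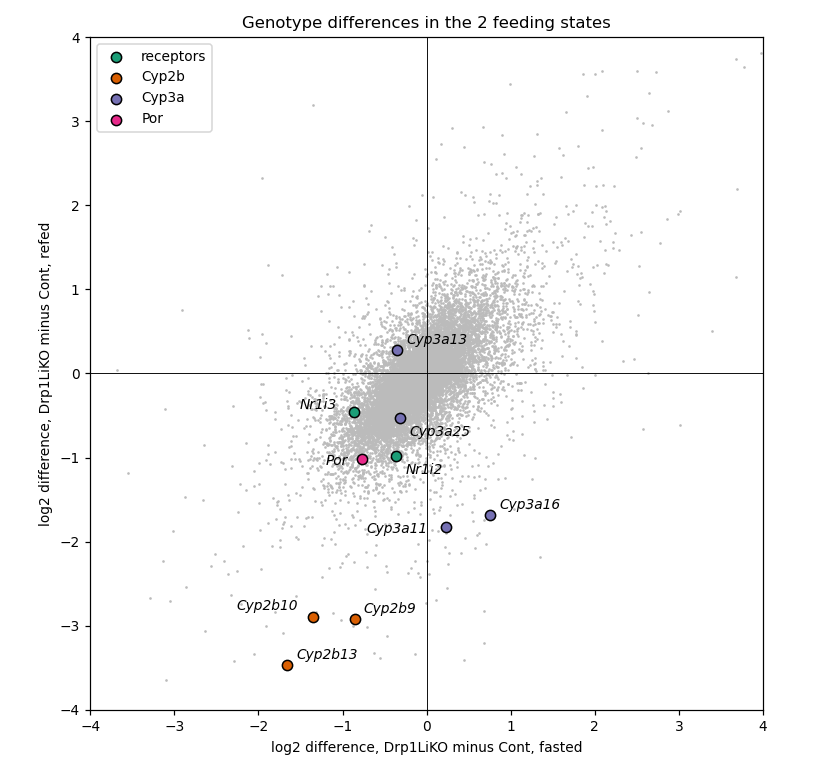
Genotype difference, log2 of Drp1LiKO minus log2 of Cont, fasted (horizontal axis) and refed (vertical axis), for 14448 genes with a signal well above background on every array (grey points, 11 of them outside the axes) and for the 10 genes (colored circles; Cyp2b9 is not well above background on 1 array). The Cyp2b genes lie at the lower left, and Cyp3a11 and Cyp3a16 at the lower right, above 0 fasted and at -1.83 and -1.69 refed.

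The nearest patterns to that of Cyp3a11 were those of Abca8a (0.08), a lipid transporter, Csad (0.10), an enzyme of taurine synthesis, and Slc25a47 (0.15), a mitochondrial carrier of hepatocytes. Their refed genotype differences were -1.63, -1.61 and -2.03, and their fasted ones 0.15, 0.07 and -0.10.

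Among 24 partners, chaperones and coregulators of the receptors, none was called higher in either genotype comparison, where 8.05% of all genes were higher in each. Foxa1, a transcription factor that opens liver enhancers, was lower in the fasted Drp1LiKO liver (-1.10) and had 0.35 after refeeding. Nr0b2, which encodes the repressor SHP, had 0.69 after fasting and was lower after refeeding (-1.37). Its change of -2.06 was equal in size to that of Cyp3a11. Rxra, the shared partner, had -0.45 and -0.18. The list's median was -0.19 after fasting and -0.17 after refeeding, beside -0.08 and -0.04 over all genes.

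Other known targets of CAR and PXR did not move as a block. For the counts that follow, the shares over all genes were 5.19% lower and 8.05% higher after fasting, and 6.33% lower and 8.05% higher after refeeding. Of 13 further phase I genes, 3 were lower and 2 higher after fasting, and 5 lower and 1 higher after refeeding. Lower in both states were Ces2a, a carboxylesterase (-1.24 and -1.57), and the P450 genes Cyp2c37 (-1.34 and -1.38) and Cyp2c50 (-1.13 and -1.20). Of 14 phase II genes, 3 were higher and 1 lower in each state. The glutathione transferases Gsta1 (3.97 and 3.82) and Gsta2 (2.01 and 2.24) were higher in both states. Of 7 transporters, Abcc4 was higher after fasting (1.24) and none was called after refeeding. Of 8 other reported targets, Thrsp, a gene of lipogenesis, was lower in both states (-2.00 and -1.32).

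Beside Por, 13 genes of electron supply and heme metabolism were measured, of which 10 lay below 0 in the fasted and 12 in the refed pair. Their medians were -0.38 and -0.35, beside -0.08 and -0.04 over all genes tested. The share of all genes below 0 is not given here, so nothing is read from these counts. The only call among the 13 was Hmox1, the heme-degrading oxygenase, higher after refeeding (1.02). Alas1, the rate-limiting enzyme of heme synthesis, had -0.93 after fasting and -0.04 after refeeding. Of 15 other receptors and regulators of xenobiotic and lipid sensing, Ppara, the fatty acid receptor, was lower in both states (-1.06 and -1.39). Of 8 measured female-biased genes, 1 was higher and 2 lower after fasting, and 2 were higher and 3 lower after refeeding. Cyp17a1 was lower in both states (-1.19 and -1.20), and Atp6v0d2 was higher in both (1.49 and 1.06). Of 13 male-biased genes, 2 were higher and 5 lower after fasting, and 4 were lower after refeeding. Hsd3b5 (-4.87 and -2.20) and Nudt7 (-1.62 and -1.02) were lower in both states, whereas Cyp4a12a (1.38) and Cyp4a12b (1.39) were higher after fasting. The male-biased list had medians of -0.86 and -0.44, and the female-biased list -0.18 and -0.65.

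Some markers of other liver cells also differed between these arrays. Sums over a marker list are set mainly by its brightest probes, so members are given beside them. The 4 neutrophil markers, all well above background, summed to a relative signal of 4.72 in Cont and 2.46 in Drp1LiKO after fasting, and to 4.93 and 8.80 after refeeding. S100a8 had a genotype difference of -1.04 after fasting and 0.94 after refeeding, and S100a9 of -1.11 and 1.04, with signs opposite to those of Cyp3a11 and Cyp3a16. The other members of the list did not share this, with -1.59 and -0.74 for Retnlg and 0.08 and 0.02 for Ly6g. The 5 macrophage markers summed to 60.6 and 78.5 after fasting and to 72.7 and 137 after refeeding, and Marco was higher in Drp1LiKO in both states (1.65 and 1.61). Adgre1, Cd68 and Cd5l lay above 0 by less than 2-fold in both states, and Clec4f had -0.16 and 0.34. The 5 hepatocyte markers summed to 1388 in Cont and 1023 in Drp1LiKO after fasting, and to 1726 and 1220 after refeeding. Alb had -0.52 and -0.55, and Ttr -0.63 and -0.66, whereas Tat had 1.04 and 0.98 and Cps1 0.60 and 1.24, and the list's medians were -0.17 and -0.27. Of 3 measured cholangiocyte markers, with sums of 0.216 and 0.366 after fasting and 0.321 and 0.614 after refeeding, Sox9 was higher in both states (1.26 and 1.66). Of 4 stellate cell and fibroblast markers, with sums of 0.781 and 1.47 and of 1.03 and 1.25, Col1a1 was higher after fasting (1.67), had -0.02 after refeeding, and was lower in the refed than in the fasted Drp1LiKO liver (-1.01). Lrat had 0.84 after fasting and 0.60 after refeeding, whereas Reln had -0.74 and -0.33, and Des -0.05 and 0.04. The 4 endothelial markers summed to 22.9 and 16.7 after fasting and 26.8 and 16.5 after refeeding, with no member past 2-fold between genotypes. Kdr had -0.81 and -0.93 and Stab2 -0.05 and -0.24, whereas Pecam1 had 0.84 and 0.07 and Lyve1 0.93 and 0.24. The 2 measured T and B cell markers summed to 2.22 and 1.45 and to 2.81 and 1.85, also with none past 2-fold. Cd3e had -0.67 and -0.64, and Cd79a 0.15 and -0.20. The adipocyte markers Adipoq, Lep and Plin1 were not well above background on any array. The part of these markers in the differences above was not tested. In whole liver, fewer cells of a type and less RNA per cell cannot be told apart. The relative signals also depend on the scaling. Before it, Alb had 398463 in Cont and 435653 in Drp1LiKO after fasting, and 380831 and 382978 after refeeding. The part of the scaling in the lower hepatocyte sums was not tested.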

How the data were processed

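The 4 arrays were on 1 slide. The intensity values are the processed signals deposited by the authors in the scanner files, background-subtracted by Feature Extraction (version 9.5.1.1 per the labels, 10.7.1.1 per the file headers) and not normalized between arrays. The array design in the labels differs from that in the methods. A second table by the authors, of linear signal values, equals a quantile normalization of these signals to within 0.00042 on the log2 scale and was used as an alternative.

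Each signal was divided by the 75th percentile of its array's gene spots and its log2 taken. Spots with outlier flags were left out, which removed 37 probes, and spots of a probe were averaged. Of 39429 probes, 26761 were named through their RefSeq accession and the others by the name in the file. Of several probes for a gene, the 1 detected well above background most often was used, ties going to the brightest. Calls needed a 2-fold difference and a brighter side well above background. No significance test was made, since each condition has 1 array, and the number of arrays limits the precision. For bounds, a dim signal was raised to the lowest detected signal of its array where it was below that.

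The genes, the lists and the rules were chosen with earlier results of these data known. All 10 genes are named. From each list, those named were at least 2-fold changed the same way in both genotype comparisons and well above background on all 4 arrays, and nearest patterns were taken as the 3 genes at the smallest distance. Genes outside these rules (Nr0b2, Foxa1, Rxra, Hmox1, Alas1, Abcc4, Cyp4a12a, Cyp4a12b, Atp6v0d2, the other Cyp3a genes and the markers) were named after their values were seen. Other settings tried were quantile normalization, scaling to the median, normexp with an offset of 50, the authors' table, other probes of a gene, bounds for dim signals and a 1.5-fold threshold. The 2-fold rule was tested on simulated data, which hold nothing on the spread between these mice. Upstream sequences are RefSeq's (GRCm38.p6), and probe positions are mm9. Python 3.11.15 with numpy 2.4.6 and pandas 2.3.3 and R 4.3.3 with limma 3.58.1 were used.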

Additional observations from a re-analysis of the deposited data

Results flagged for a closer look

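The genotype difference (Drp1LiKO minus Cont, log2) had opposite signs in the fasted and the refed pair for 3 of the 10 genes. From the fasted to the refed pair it changed by -2.06 for Cyp3a11, by -2.44 for Cyp3a16 and by 0.62 for Cyp3a13. Cyp3a13 ran from -0.35 to 0.27, and both values are under 2 times their measurement SE of 0.20. The fasted value of Cyp3a11, 0.23, is also under 2 times its SE, but it was 0.58 with quantile normalization, which is above that. With 1 array per condition these differences between the feeding states were not tested.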

How the results depend on the processing

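No paired analysis was possible because each condition has 1 array. Of 315 differences of the 10 genes recomputed under the alternatives, 298 moved by no more than 1.96 times the measurement SE, and 17 moved further. None of those called reversed. Many of the 315 could not move. Reading dim signals at their bound left all 50 values as they were. Genes with 1 probe keep their value when the median over probes is taken, and the authors' table repeats the quantile normalization. The count of 298 is therefore not a measure of robustness. Over all settings, 45 of 50 differences kept their sign; those that did not were the refeeding differences in Cont of Nr1i3, Cyp2b9, Cyp3a11, Cyp3a16 and Por. With normexp background correction, 3 genes in place of 5 were at least 2-fold lower after refeeding in Drp1LiKO (6 with quantile normalization or the authors' table, which add Cyp3a25), and 3 in place of 5 had a genotype difference that changed at least 2-fold. The genes lost were Cyp2b9 and Cyp2b13, whose genotype differences changed by -0.77 and -0.78. At a 1.5-fold threshold 6 genes in place of 2 were called in the fasted pair, 5 lower and 1 higher. The other probe of Cyp3a11 turned its fasted genotype difference into a call (1.46). The scaling set the median genotype difference of the 14448 genes in the fasted pair at -0.12, against -0.18 with scaling to the median and -0.01 with quantile normalization, where Cyp3a25 had -0.01 after fasting. The dimmest values, those of Cyp2b9 and Cyp2b13 in the refed Drp1LiKO liver, limit the size of the largest differences. One liver per condition leaves the spread between mice unknown.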
